A study of Mus musculus with 6 samples.

Results

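Brush border peptidases are enzymes of the intestinal surface that cut the peptides left by gastric and pancreatic digestion. Transcripts of 8 of them were followed in mouse colon: Mep1a, Mep1b, Anpep, Enpep, Naaladl1, Xpnpep2, Dpp4 and Ace. They were picked by gene symbol from the 25339 genes of the deposited table, and all 8 were present in it. The choice was made with the lenvatinib and DMSO values of these genes already known, so their differences between the groups are given as a description, without a test.

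RNA sequencing of colon was compared between mice that received lenvatinib (3 libraries) and mice that received DMSO, its solvent (3 libraries). Lenvatinib is an oral inhibitor of receptor tyrosine kinases, among them the VEGF and FGF receptors. The series title concerns colitis, but the labels give no strain, age, sex, dose or duration, leave unsaid if the animals had colitis, and do not tie a library to an animal. The sample titles call every library a biological replicate. Levels are FPKM, which scale fragments by gene length and library depth, so that they can be compared between genes. Each log2 difference is the lenvatinib mean minus the DMSO mean of log2(FPKM + 1), a scale that makes changes of low genes look smaller.

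Enterocytes, the absorptive cells of the gut, carry these peptidases on their microvilli. Endopeptidases cut within a chain, aminopeptidases remove residues from its front end, and dipeptidyl peptidases release pairs of residues, so that amino acids and very short peptides can be taken up. Several members also cut hormones: Ace and Enpep act in the angiotensin pathway and Dpp4 on incretins. Protein digestion takes place mainly in the small intestine, and the brush border of the colon is generally poorer in these enzymes, although meprins are abundant in mouse colon.

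The libraries held 37658875 to 39287783 reads in genes, recovered from the steps of the FPKM values. Libraries 2 and 3 of each group were nearly alike: over genes with enough reads, their median squared deviation was 2.29 times that of counting noise for the lenvatinib pair and 2.53 times for the DMSO pair, against 10.1 to 25.2 times for all other pairs. P-values below measure the spread between these 6 libraries, which for libraries 2 and 3 may be technical, although their titles call them biological replicates. The tissue label was checked against epithelial markers, with Krt8 at 2262 to 2282 FPKM in lenvatinib and 2346 to 2676 FPKM in DMSO libraries, and the colonocyte marker Car1 at 7590 to 10357 FPKM in lenvatinib and 7823 to 9567 FPKM in DMSO libraries. Listed markers of small intestine were present in both groups, with Fabp2 at 302 to 479 FPKM in lenvatinib and 406 to 540 FPKM in DMSO libraries. Some of them, such as Fabp6, were far higher in the lenvatinib libraries, as given with the results.

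Examples of the members are the aminopeptidases Anpep and Enpep, with fold changes of 4.65 and 5.58, and the most abundant member, the endopeptidase Mep1a, with 1.53. The sequences around the start of these 3 members are shown, and any link of these sequences to the levels was not tested. They are the RefSeq windows of GRCm38.p6, 300 bases long with 250 before the annotated start and 50 after it, 5′ to 3′ on the strand of the gene, which is the minus strand for all 3. Capitals mark matches to motifs of intestinal transcription factors. Anpep lies at chr7:79848161-79848460, Enpep at chr3:129332700-129332999 and Mep1a at chr17:43502724-43503023.
Anpep: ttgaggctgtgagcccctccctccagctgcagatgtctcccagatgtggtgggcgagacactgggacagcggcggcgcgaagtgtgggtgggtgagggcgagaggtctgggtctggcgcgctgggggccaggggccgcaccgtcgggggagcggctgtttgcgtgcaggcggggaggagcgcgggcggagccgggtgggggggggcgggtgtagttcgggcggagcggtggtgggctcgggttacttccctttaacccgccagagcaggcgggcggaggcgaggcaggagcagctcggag
Enpep: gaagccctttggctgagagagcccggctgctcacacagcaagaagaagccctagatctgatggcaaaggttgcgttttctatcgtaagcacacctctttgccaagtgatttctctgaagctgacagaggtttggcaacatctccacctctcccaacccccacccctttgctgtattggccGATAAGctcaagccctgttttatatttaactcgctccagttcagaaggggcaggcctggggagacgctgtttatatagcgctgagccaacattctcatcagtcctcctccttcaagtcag
Mep1a: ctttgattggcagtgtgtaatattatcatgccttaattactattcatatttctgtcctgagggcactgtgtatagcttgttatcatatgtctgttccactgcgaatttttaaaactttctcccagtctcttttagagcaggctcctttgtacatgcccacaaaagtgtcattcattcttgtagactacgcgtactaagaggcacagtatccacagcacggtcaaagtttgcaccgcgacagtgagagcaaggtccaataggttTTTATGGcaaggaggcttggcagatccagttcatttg

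The motifs searched on both strands were CAAAGTNCA for HNF4, TTTATNG for CDX2 and GATAAG for GATA factors, where N is any base. Among 32851 such windows of all genes, 1.41% held the HNF4 letters, 10.9% those of CDX2 and 7.44% those of GATA. The Enpep window held 1 GATA match at bases 181 to 186, and the Mep1a window 1 CDX2 match at bases 264 to 270, after the start. Dpp4 had 1 CDX2 match on the other strand at bases 23 to 29 of its window, and the windows of Anpep, Ace (2 starts) and Xpnpep2 had none. The 6 members with a window differed in base composition. Anpep had 72.3% G and C with 28 CpG and the first Ace start 69.7% with 29 CpG, while Mep1a had 42.3% with 6 and Xpnpep2 47.3% with 0, against medians of 52.7% and 7 over all windows. Naaladl1 and Mep1b are named only. In human, ANPEP transcripts of intestinal epithelium and of myeloid cells start at different promoters, and gene-level FPKM values do not show which start was used.

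All 8 transcripts had a positive log2 difference, as did 36.1% of the 11774 genes tested (mean of at least 1 FPKM), and a higher mean in the lenvatinib libraries, by factors from 1.23 for Ace to 19.2 for Naaladl1. In 7 of the 8, every lenvatinib library lay above every DMSO library, a pattern found for 10.0% of the genes tested, and the groups overlapped for Mep1b. The rule for choosing these genes used the same values, so nothing is read from these counts. All 8 were above the filter of 1 FPKM, which is set on the mean of all 6 libraries. Naaladl1 and Xpnpep2 had DMSO means of 0.890 and 0.857 FPKM and were above it only through the lenvatinib libraries. The median log2 difference of the members was 0.80, beside -0.07 over all genes tested. In bulk tissue, more cells of a type and more RNA per cell cannot be told apart.

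**Figure D1:**
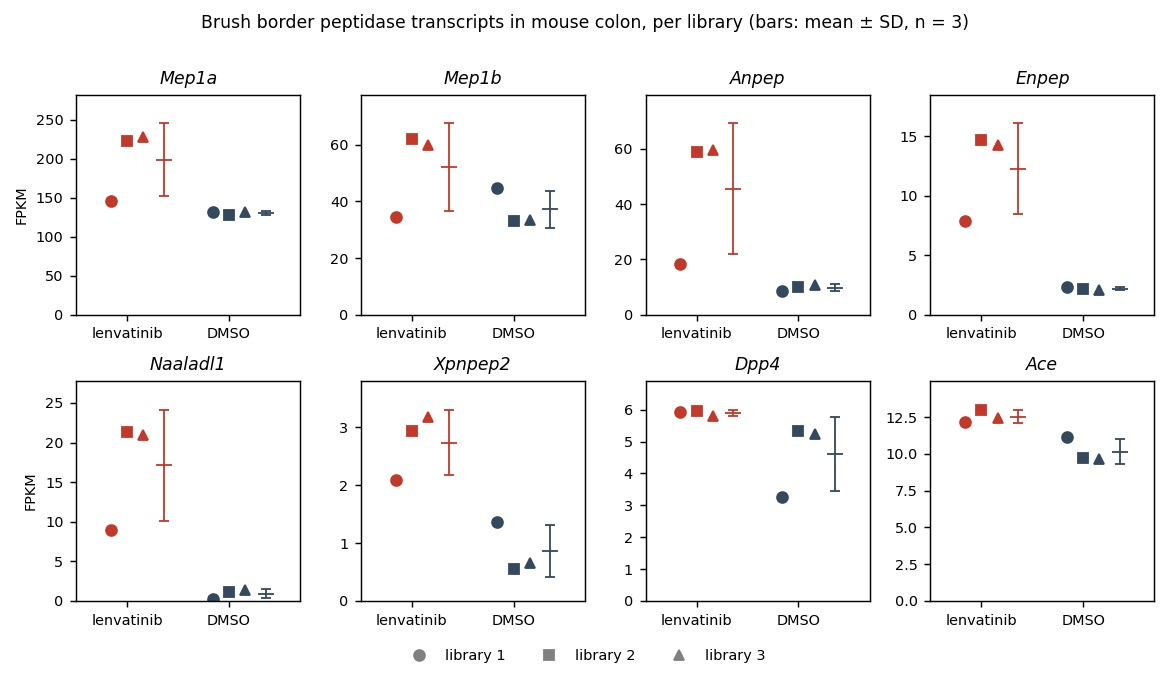
FPKM of each peptidase transcript in each library, with lenvatinib libraries left and DMSO libraries right in every panel; circles, squares and triangles are libraries 1, 2 and 3, the bars give mean ± SD (n = 3), and each panel has its own axis from 0. For Anpep, Enpep, Naaladl1 and Mep1a the lenvatinib 2 and 3 points lie close together and above lenvatinib 1, and only for Mep1b does a lenvatinib point fall within the DMSO range.

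Mep1a and Mep1b encode meprin α and meprin β, zinc endopeptidases of the astacin family. Meprin β is anchored in the membrane and can hold meprin α there, while meprin α alone is secreted, and in mouse meprin β cuts the mucin Muc2. Mep1a measured 146, 223 and 228 FPKM in lenvatinib 1 to 3, against 131, 127 and 132 FPKM in DMSO 1 to 3. It was the highest member in every library, and lenvatinib 1 was only 1.12 times the DMSO mean while lenvatinib 2 and 3 were 1.71 and 1.75 times that mean. Mep1b measured 34.4, 62.1 and 59.8 FPKM in lenvatinib 1 to 3 and 44.8, 33.1 and 33.5 FPKM in DMSO 1 to 3. Lenvatinib 1 thus lay between the DMSO libraries, and DMSO 1 was 1.35 times the mean of DMSO 2 and 3. The group means were 199 ± 46.2 and 130.1 ± 2.47 FPKM for Mep1a and 52.1 ± 15.4 and 37.2 ± 6.66 FPKM for Mep1b, in lenvatinib and DMSO (SD, n = 3 each).

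The ratio of Mep1a to Mep1b FPKM was 4.23, 3.58 and 3.82 in lenvatinib 1 to 3 and 2.93, 3.84 and 3.93 in DMSO 1 to 3. The 4 libraries numbered 2 and 3 thus spanned 3.58 to 3.93 in both groups, and both libraries numbered 1 lay outside that span, on opposite sides. Across the 6 libraries the centred profiles of the meprins were the closest of all 28 pairs of members, with a root-mean-square difference of 0.16 on the log2 scale.

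Anpep encodes aminopeptidase N, also known as CD13, which removes mostly neutral residues and is found on enterocytes, myeloid cells and fibroblasts. It measured 18.4, 59.0 and 59.4 FPKM in lenvatinib 1 to 3, against 8.48, 10.1 and 10.8 FPKM in DMSO 1 to 3. The highest DMSO library was well below lenvatinib 1, and the mean of lenvatinib 2 and 3 was 3.22 times lenvatinib 1. The fold over the DMSO mean was 1.88 in lenvatinib 1 and 6.01 and 6.06 in lenvatinib 2 and 3. The group means were 45.6 ± 23.6 FPKM in lenvatinib and 9.81 ± 1.20 FPKM in DMSO libraries (SD, n = 3 each). Relative to lenvatinib 1, the gap to lenvatinib 2 and 3 was the widest among the members.

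Enpep encodes aminopeptidase A, which removes acidic residues and turns angiotensin II into angiotensin III. It measured 7.84, 14.7 and 14.2 FPKM in lenvatinib 1 to 3 and 2.35, 2.14 and 2.10 FPKM in DMSO 1 to 3. The DMSO libraries were close together, at 2.20 ± 0.135 FPKM, and all 3 lenvatinib libraries were far above them, at 12.3 ± 3.83 FPKM (SD, n = 3 each). Enpep thus stood at 3.57 times the DMSO mean in lenvatinib 1, where Anpep stood at 1.88 times. The ratio of Anpep to Enpep FPKM was 2.35, 4.02 and 4.17 in lenvatinib 1 to 3 and 3.61, 4.74 and 5.15 in DMSO 1 to 3, lowest in both groups in the library numbered 1.

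Naaladl1 encodes a relative of glutamate carboxypeptidase II that was described in rat as a protein of the ileal brush border. It measured 8.99, 21.4 and 21.0 FPKM in lenvatinib 1 to 3, against 0.254, 1.09 and 1.33 FPKM in DMSO 1 to 3. The value in DMSO 1 rested on 26 reads (95% exact Poisson interval 17.0 to 38.1 reads, or 0.166 to 0.373 FPKM, counting error only), those in DMSO 2 and 3 on 116 and 139 reads. DMSO 1 thus held 0.211 of the mean of DMSO 2 and 3, a gap larger than counting error. The fold of lenvatinib over the DMSO mean was 10.1, 24.0 and 23.6 in the 3 libraries, the largest of any member, and the log2 difference was 3.22.

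Xpnpep2 encodes the membrane-bound aminopeptidase P, which releases a residue that stands before proline and degrades bradykinin. It measured 2.09, 2.94 and 3.17 FPKM in lenvatinib 1 to 3 and 1.37, 0.553 and 0.647 FPKM in DMSO 1 to 3. It was the lowest member in both groups by mean, and here DMSO 1 was the highest of its group, at 2.28 times the mean of DMSO 2 and 3. The gap between the groups ran from 2.09 FPKM in lenvatinib 1 to 1.37 FPKM in DMSO 1.

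Dpp4 encodes dipeptidyl peptidase 4, which cuts after proline or alanine, inactivates GLP-1 and is also carried by T cells. It measured 5.94, 5.97 and 5.80 FPKM in lenvatinib 1 to 3, against 3.27, 5.32 and 5.22 FPKM in DMSO 1 to 3. The lenvatinib libraries were close together, and DMSO 1 alone lay low, at 0.619 of the mean of the other DMSO libraries. Without DMSO 1 the log2 difference was 0.14, against 0.32 with it.

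Ace encodes angiotensin-converting enzyme, which releases dipeptides from the tail end, makes angiotensin II and is also abundant on endothelium. It measured 12.2, 13.0 and 12.4 FPKM in lenvatinib 1 to 3, against 11.1, 9.72 and 9.63 FPKM in DMSO 1 to 3. The groups did not overlap, but lenvatinib 1 and DMSO 1 were only about 1 FPKM apart. The log2 difference of 0.28 was the smallest among the members. Dpp4 and Ace were the members with the most similar levels across the lenvatinib libraries.

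The position of lenvatinib 1 set the members apart from each other. Taking the DMSO mean as 0% and the mean of lenvatinib 2 and 3 as 100% on the log2 scale, lenvatinib 1 stood at -13.3% for Mep1b, 20.5% for Mep1a and 34.2% for Anpep. It stood at 64.6% for Enpep, 66.1% for Xpnpep2 and 68.1% for Naaladl1. For Ace and Dpp4, whose total change was small, it stood at 79.9% and 104%. Over all 8 members the median log2 difference from the DMSO mean was 0.55, 0.94 and 1.00 in lenvatinib 1 to 3, while over all genes tested it was 0.01, -0.10 and -0.10.

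The order of levels by group mean was similar in both groups at its ends and differed in the middle. In lenvatinib libraries it ran Mep1a, Mep1b, Anpep, Naaladl1, Ace, Enpep, Dpp4 and Xpnpep2, and in DMSO libraries Mep1a, Mep1b, Ace, Anpep, Dpp4, Enpep, Naaladl1 and Xpnpep2. The ranges of neighbours overlapped in the lenvatinib group for all steps from Mep1b down to Enpep. In the DMSO group they overlapped only between Ace and Anpep and between Naaladl1 and Xpnpep2.

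The summed level of the 8 transcripts was 235, 402 and 404 FPKM in lenvatinib 1 to 3 and 203, 189 and 195 FPKM in DMSO 1 to 3. The meprins made up 76.4, 70.9 and 71.3% of the sum in lenvatinib 1 to 3 and 86.8, 84.7 and 84.7% in DMSO 1 to 3. Leaving the meprins out, the other 6 summed to 55.4, 117 and 116 FPKM in lenvatinib 1 to 3, against 26.9, 29.0 and 29.7 FPKM in DMSO 1 to 3. Anpep alone made up 7.82 to 14.7% of the whole sum in lenvatinib libraries and 4.18 to 5.55% in DMSO libraries, and Naaladl1 3.82 to 5.32% in lenvatinib and 0.125 to 0.681% in DMSO libraries.

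**Figure D2:**
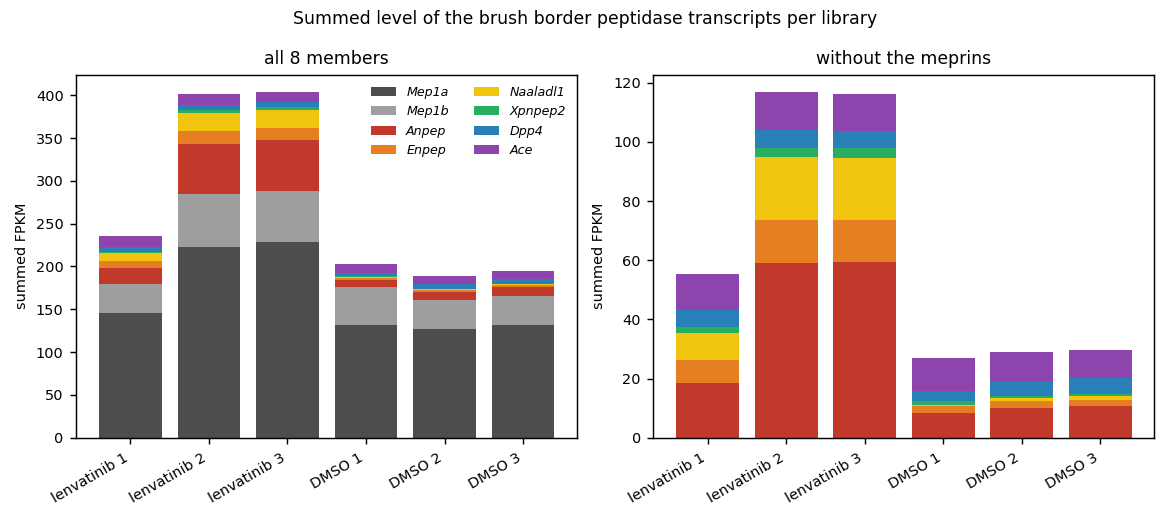
Stacked bars of the summed FPKM per library, for all 8 members on the left and without the meprins on the right (separate axes, both from 0), lenvatinib libraries first. The meprins, in grey, make up 70.9 to 86.8% of every bar on the left, and on the right lenvatinib 2 and 3 reach 117 and 116 FPKM, lenvatinib 1 reaches 55.4 FPKM and the DMSO libraries stay at 26.9 to 29.7 FPKM.

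The members were set beside marker genes of the cells that could carry them. Of 10 listed genes of ileal enterocytes, 8 were tested and 4 rose at a limma adjusted p below 0.05 (Fabp6, Mttp, Slc10a2 and Apoa1), none fell and 4 did not pass. Slc10a2 and Apoa1 were near the threshold (limma adjusted p = 0.0346 and 0.0441). Over all 11774 genes tested, 1.10% rose and 0.934% fell, shares that also stand beside the marker counts that follow. Marker calls were not followed through the alternative settings. Their summed level was 544 to 772 FPKM in lenvatinib and 459 to 599 FPKM in DMSO libraries, most of it from Fabp2, which gave 302 to 479 FPKM in lenvatinib and 406 to 540 FPKM in DMSO libraries. Fabp6, the ileal bile acid binding protein, stood at 161, 160 and 148 FPKM in lenvatinib 1 to 3, against 1.44, 2.28 and 2.27 FPKM in DMSO 1 to 3. Of 6 Paneth cell genes found in the table, 4 rose, none fell and 2 did not pass. Ang4, which did not pass, went the other way, with every lenvatinib library below every DMSO library. It stood at 6.69, 13.9 and 14.3 FPKM in lenvatinib 1 to 3 and 1672, 51.2 and 55.3 FPKM in DMSO 1 to 3. The Paneth list summed to 156 to 222 FPKM in lenvatinib and 60.2 to 1691 FPKM in DMSO libraries, most of the 1691 FPKM from Ang4 in DMSO 1. Mttp, Apoa1, Defa24 and the Paneth genes Mmp7 and Mptx2 had DMSO means under 1 FPKM. They were above the filter only through the lenvatinib libraries. Defa24, a defensin, stood at 94.8 to 139 FPKM in lenvatinib and 0 to 1.13 FPKM in DMSO libraries, and its reads may be split among near-identical copies. Of the other ileal genes, Apoa1 stood at 6.16, 39.98 and 40.31 FPKM in lenvatinib 1 to 3 and 0.506, 0.230 and 0.208 FPKM in DMSO 1 to 3. Slc10a2, the ileal bile acid carrier gene, stood at 6.68, 11.6 and 12.2 FPKM in lenvatinib 1 to 3 and 2.95, 1.19 and 1.24 FPKM in DMSO 1 to 3. Rbp2, for a retinol binding protein, stood at 12.09, 26.17 and 25.01 FPKM in lenvatinib 1 to 3 and 10.2, 10.7 and 11.2 FPKM in DMSO 1 to 3, and did not pass. Fabp6 was thus at similar levels in the 3 lenvatinib libraries, whereas Apoa1, Slc10a2 and Rbp2 were lower in lenvatinib 1 than in lenvatinib 2 and 3. The same order held for every member except Dpp4, though for Ace the gap was small. The part of small intestinal tissue in the members' values was not tested.

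Of 10 colonocyte genes 1 rose, Slc51a, and 9 did not pass. The list summed to 12098, 18876 and 18886 FPKM in lenvatinib 1 to 3 and to 13098, 14322 and 14699 FPKM in DMSO 1 to 3. In 7 of the 10, lenvatinib 2 and 3 were above every DMSO library and lenvatinib 1 was not, as in Mep1b, a pattern found for 9.68% of all genes tested. Guca2a, for guanylin, stood at 1364, 2168 and 2113 FPKM in lenvatinib 1 to 3 and 1613, 1297 and 1325 FPKM in DMSO 1 to 3. Markers of all epithelium did not pass (0 of 9; 2 at an unadjusted p below 0.05) and summed to 6849 to 6946 FPKM in lenvatinib and 7319 to 7768 FPKM in DMSO libraries. With each library divided by these 9 markers, the median log2 difference of the members was 0.87. The part of these differences in the members' values was not tested.

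**Figure D3:**
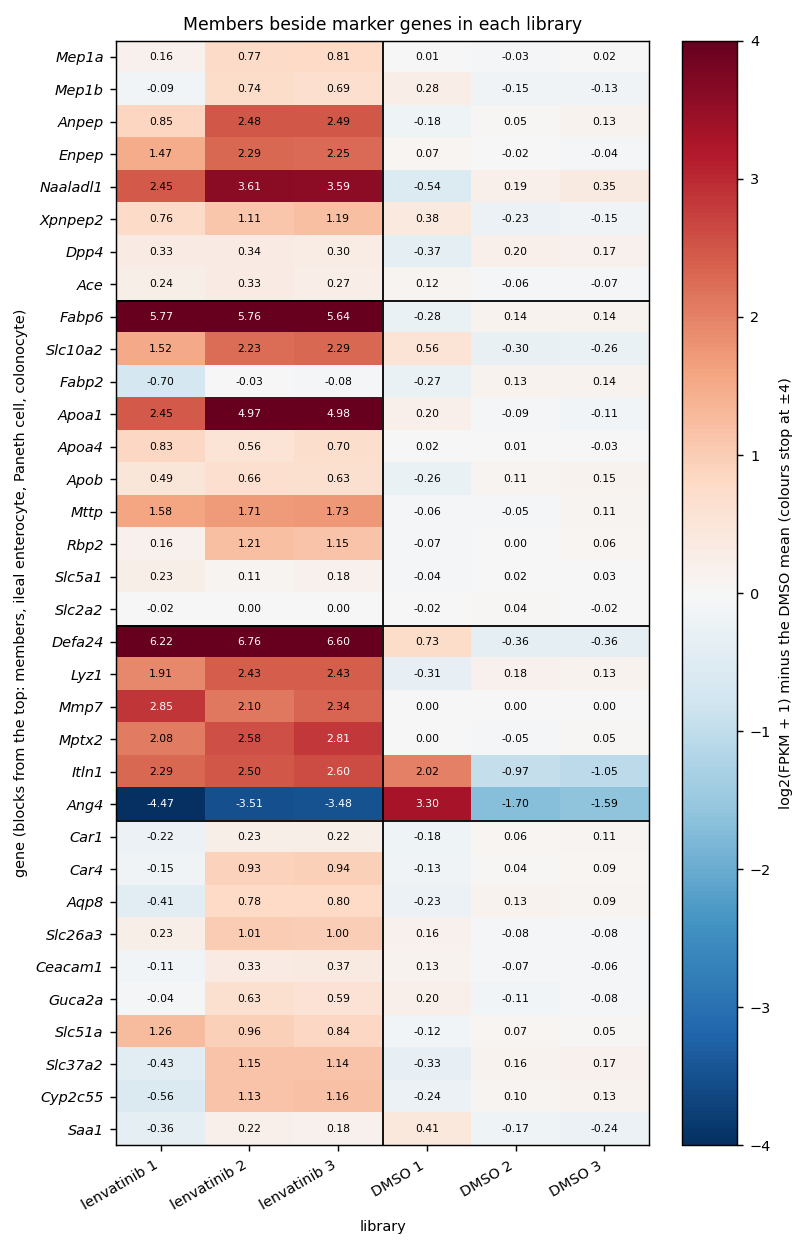
Difference of log2(FPKM + 1) from the DMSO mean in each library, for the 8 members (top block) and all listed ileal enterocyte, Paneth cell and colonocyte genes in the table, lenvatinib libraries left of the line; red is higher, blue lower, and colours stop at ±4. Fabp6 and Defa24 are high in all 3 lenvatinib libraries. Apoa1, Slc10a2 and Rbp2 are lower in lenvatinib 1 than in lenvatinib 2 and 3, while Slc5a1, Apoa4 and Mmp7 are highest in lenvatinib 1. Mep1b and 7 of 10 colonocyte genes are above every DMSO library in lenvatinib 2 and 3 but not in lenvatinib 1.

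Markers of other cells that can carry members were examined too. Endothelial markers, relevant to Ace, did not pass (0 of 9; 2 at an unadjusted p below 0.05) and summed to 41.6 to 62.5 FPKM in lenvatinib and 52.5 to 55.9 FPKM in DMSO libraries. Macrophage and dendritic cell markers, relevant to Anpep, fell in 7 of 8 tested genes and summed to 134 to 190 FPKM in lenvatinib and 331 to 374 FPKM in DMSO libraries. T and NK cell markers, relevant to Dpp4, did not pass (0 of 8, also 0 at an unadjusted p below 0.05) and summed to 127, 19.3 and 21.2 FPKM in lenvatinib 1 to 3 and 67.1, 91.7 and 92.1 FPKM in DMSO 1 to 3. The part of these cells in the members' values was not tested. Of 8 fibroblast genes 5 fell and none rose, and of 8 pericyte and smooth muscle genes none passed (2 at an unadjusted p below 0.05). Pancreatic markers stayed at or under 0.112 FPKM in sum in every library with Prss2 and Pnlip at 0, and those of kidney, which is rich in several members, at or under 0.310 FPKM with Slc12a1 at 0.

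Other enzymes of the enterocyte surface, none of them members, were tested over the whole table with limma on log2(FPKM + 1). The p-values were two-sided and adjusted by Benjamini-Hochberg, and genes passed below 0.05. Of 18 listed hydrolases 17 were in the table, 11 were tested, 2 rose, none fell and 9 did not pass, where 2.03% of all 11774 genes tested were called, 1.10% higher and 0.934% lower. The median log2 difference of the 11 was 0.28, beside -0.07 over all genes tested. Ggt1, a γ-glutamyltransferase, measured 6.84, 6.26 and 6.74 FPKM in lenvatinib 1 to 3, against 2.44, 1.35 and 1.97 FPKM in DMSO 1 to 3 (log2 difference 1.40, SE 0.14, limma adjusted p = 0.00896). Sis, for sucrase-isomaltase of the small intestine, measured 1.60, 3.71 and 3.43 FPKM in lenvatinib 1 to 3, against 0.0398, 0.102 and 0.0690 FPKM in DMSO 1 to 3 (log2 difference 1.82, SE 0.23, limma adjusted p = 0.0179). Both were higher in 3 of 3 lenvatinib libraries than in any DMSO library. Sis, with a DMSO mean of 0.0702 FPKM, was above the filter only through the lenvatinib libraries.

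Both calls were lost, leaving 0 of the 11, with libraries 2 and 3 as a random block with an estimated correlation (limma adjusted p = 0.241 for Ggt1 and 0.0622 for Sis) and with these libraries averaged (0.218 and 0.401). Ggt1 also lost its call without lenvatinib 2, lenvatinib 3 or DMSO 3 (limma adjusted p = 0.0519, 0.0635 and 0.0674; 0.00300 to 0.241 over all alternatives). Sis, which rested on 9, 24 and 16 reads in DMSO 1 to 3, also lost it without any single library except lenvatinib 1 (1.65e-04 to 0.401 over all alternatives). Without lenvatinib 1, 5 of the 11 passed, all higher, and 4479 of all 11774 genes passed, 1160 of them higher.

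Among the more abundant hydrolases, Mgam, for maltase-glucoamylase, stood at 32.6 ± 1.72 FPKM in lenvatinib and 31.6 ± 1.49 FPKM in DMSO libraries (SD, n = 3 each; log2 difference 0.04) and did not pass. Dpep1, a membrane dipeptidase, stood at 57.9 ± 9.67 and 38.4 ± 4.54 FPKM and Alpi, intestinal alkaline phosphatase, at 22.2 ± 7.90 and 13.1 ± 1.14 FPKM in lenvatinib and DMSO libraries, neither passing (limma adjusted p = 0.116 and 0.228). The phospholipase gene Pla2g12b stood at 10.7 ± 0.967 FPKM in lenvatinib and 8.70 ± 1.36 FPKM in DMSO libraries and did not pass. Lct, for lactase, and the peptidase genes Mme and Folh1 stayed at or under 0.103 FPKM in every library, and Enpp7 was at 0 in all 6.

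Carriers that take up the products of peptide digestion changed in part. Of 13 listed genes 10 were tested, 2 rose, none fell and 8 did not pass, with a median log2 difference of 0.22. The genes that rose encode the 2 subunits of the carrier for cystine and dibasic amino acids. Slc3a1 measured 10.6, 18.0 and 17.7 FPKM in lenvatinib 1 to 3, against 4.61, 5.07 and 5.05 FPKM in DMSO 1 to 3 (log2 difference 1.44, SE 0.19, limma adjusted p = 0.0237). Slc7a9 measured 1.89, 2.81 and 3.03 FPKM in lenvatinib 1 to 3, against 0.149, 0.0881 and 0.0672 FPKM in DMSO 1 to 3 (log2 difference 1.69, SE 0.14, limma adjusted p = 0.00483). With libraries 2 and 3 as a random block with an estimated correlation, 1 of the 10 passed (Slc7a9, limma adjusted p = 0.0263, and Slc3a1, 0.0567), and with these libraries averaged, 0 passed (0.196 and 0.450). Slc3a1 also lost its call without any single library except lenvatinib 1 and with no filter (1.65e-04 to 0.450 over all alternatives), and Slc7a9 kept its call without any 1 library (2.01e-04 to 0.196 over all alternatives). In DMSO 1 to 3 the Slc7a9 values rested on 13, 8 and 6 reads. With a DMSO mean of 0.102 FPKM, Slc7a9 was above the filter only through the lenvatinib libraries. Slc15a1, the peptide carrier PEPT1, was below the filter, at 0.268, 0.746 and 1.02 FPKM in lenvatinib 1 to 3 and 0.438, 0.137 and 0.164 FPKM in DMSO 1 to 3, with overlapping groups. Slc6a14, Slc7a7, Slc3a2 and Slc36a1 did not pass.

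**Figure D4:**
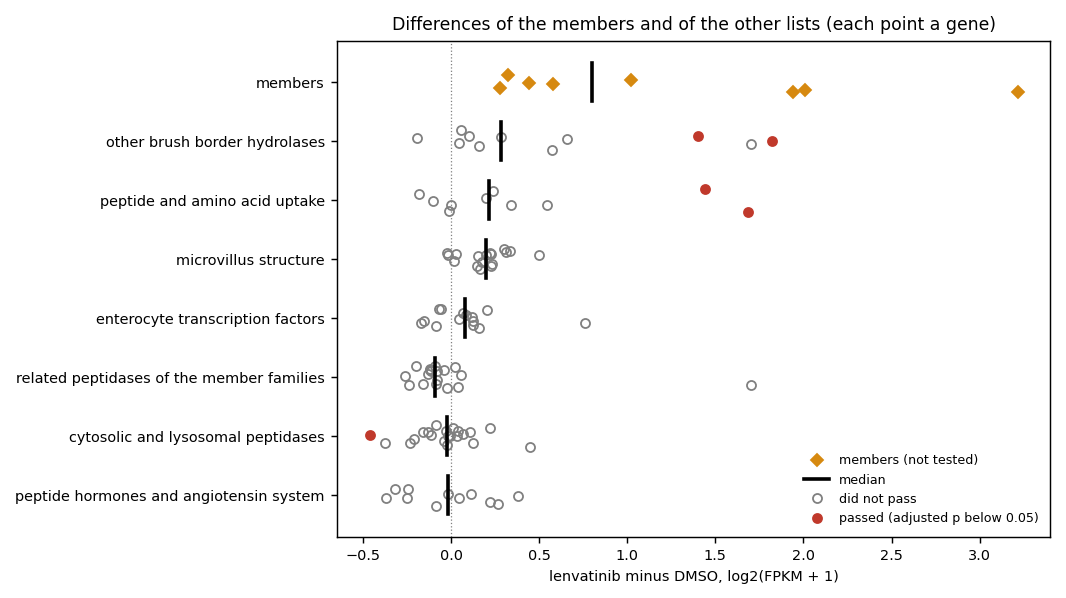
Log2 difference, lenvatinib minus DMSO on log2(FPKM + 1), of each member (diamonds, not tested) and of each tested gene of 7 other lists (circles, filled where limma's adjusted p was below 0.05); the black bars are medians. The members' median is 0.80, those of the other surface hydrolases and uptake carriers are 0.28 and 0.22, and those of related and intracellular peptidases lie at -0.09 and -0.02. The members were chosen with their differences known and the lists with earlier results known, so nothing is read from the order of these medians.

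Genes that build the microvillus did not pass in limma (0 of 17 tested; 5 at an unadjusted p below 0.05), with a median log2 difference of 0.20. Vil1, for villin, stood at 317 ± 11.6 FPKM in lenvatinib and 310.2 ± 14.8 FPKM in DMSO libraries (SD, n = 3 each), so that Anpep stood at 6.07, 18.1 and 18.5% of Vil1 in lenvatinib 1 to 3 and 2.89, 3.16 and 3.42% in DMSO 1 to 3. In 8 of the 17, lenvatinib 2 and 3 but not lenvatinib 1 were above every DMSO library, a pattern found for 9.68% of all genes tested. Without lenvatinib 1, 9 of the 17 passed, as did 4479 of all 11774 genes tested. The microvillus cadherin genes Cdhr5 and Cdhr2 stood at 306 ± 63.6 and 259.6 ± 16.1 FPKM and at 212 ± 44.7 and 178 ± 2.51 FPKM, in lenvatinib and DMSO libraries. Myo1a, a motor of the microvillus, stood at 256 ± 19.6 FPKM in lenvatinib and 208 ± 9.54 FPKM in DMSO libraries.

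Transcription factor genes of enterocytes did not pass either (0 of 14, with 3 at an unadjusted p below 0.05), with a median log2 difference of 0.08. With median of ratios scaling, quantile normalization, epithelial marker scaling or without DMSO 1, 1 of the 14 passed, higher. Without lenvatinib 1, 3 passed, as did 4479 of all 11774 genes. Creb3l3 stood at 6.28 ± 0.697 FPKM in lenvatinib and 3.34 ± 0.799 FPKM in DMSO libraries (log2 difference 0.76, limma adjusted p = 0.0640). Hnf4a stood at 212 ± 15.8 FPKM in lenvatinib and 220.0 ± 11.0 FPKM in DMSO libraries, Cdx2 at 213 ± 4.30 and 226 ± 13.6 FPKM, Cdx1 at 192 ± 1.50 and 186 ± 3.46 FPKM and Elf3 at 359 ± 7.04 and 329 ± 7.49 FPKM (SD, n = 3 each). Gata4, a factor of the proximal small intestine, stayed at or under 0.0854 FPKM in every library.

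Of 27 listed relatives of the members in the same peptidase families, 18 were tested and none passed (3 at an unadjusted p below 0.05), with a median log2 difference of -0.09 and positive values in 4. Lta4h and Rnpep, cytosolic relatives of Anpep, stood at 63.9 ± 3.38 and 69.6 ± 6.34 FPKM and at 56.0 ± 7.30 and 67.2 ± 3.93 FPKM in lenvatinib and DMSO libraries. Among 21 cytosolic and lysosomal peptidases 1 fell and none rose, with a median of -0.02. It was Ctsh, for cathepsin H, a lysosomal aminopeptidase, which measured 37.3, 38.6 and 39.0 FPKM in lenvatinib 1 to 3, against 53.2, 51.8 and 54.4 FPKM in DMSO 1 to 3 (log2 difference -0.46, limma adjusted p = 0.0143). That call was lost with the random block (limma adjusted p = 0.210), averaging (0.543) and median of ratios scaling (0.0580), and without lenvatinib 2, lenvatinib 3, DMSO 2 or DMSO 3 (0.00211 to 0.543 over all alternatives). Ctsd, Ctsb, Ctsz and Ctsa did not pass.

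Genes for substrates and receptors of the members did not pass (0 of 11 tested; 4 at an unadjusted p below 0.05). Gcg, whose product yields the Dpp4 substrate GLP-1, stood at 36.2 ± 0.946 FPKM in lenvatinib and 43.2 ± 3.94 FPKM in DMSO libraries, and Pyy at 34.5 ± 0.0202 and 37.2 ± 8.40 FPKM (SD, n = 3 each). In lenvatinib and DMSO libraries, Vip stood at 16.9 ± 0.697 and 21.7 ± 5.46 FPKM, and Atp6ap2, the renin receptor gene, at 54.8 ± 4.87 and 55.5 ± 5.03 FPKM.

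The genes nearest to each member were sought among 11358 other named genes, as the smallest root-mean-square difference of centred log2(FPKM + 1) over the 6 libraries. For the mean of the 8 members they were Cyp2e1 (0.09), Slc3a1 (0.11) and Nr1d1 (0.11). Enpep was nearest to Sis (0.11), Xpnpep2 to the sodium channel subunit gene Scnn1b (0.06), Mep1a to the sialidase gene Neu1 (0.04) and Mep1b to Smpdl3a (0.05). Ace was nearest to Cilk1 (0.02) and Dpp4 to Dynlt1b (0.03). Anpep and Naaladl1 were nearest to defensin genes, Defa34 (0.20) and Defa39 (0.47), both listed at 0 in every DMSO library. Defensin genes have near-identical copies, so their reads are uncertain. Nearness to genes at or close to 0 in DMSO libraries depends on the pseudocount and does not mean a like fold change. The log2 differences of Enpep and Sis were 2.01 and 1.82 with a pseudocount of 1, but 2.37 and 4.08 with 0.1. Naaladl1, with the largest log2 difference of the members (3.22), was farther from its nearest gene than any other member was from its own. Ace and Dpp4, with the smallest (0.28 and 0.32), were closest to theirs. The distance depends on the size of the changes, so it does not rank likeness between members. Libraries 2 and 3 of a group count almost as 1.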

How the data were processed

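RNA from 6 colon libraries, 3 lenvatinib and 3 DMSO, was analysed. The authors deposited FPKM values per gene and library. Per the submitters' processing notes HTSeq and GRCm39 were used. Aligner, annotation, strand setting and filters: not given in the sources used here. RefSeq windows are of GRCm38.p6, and only these have coordinates. In the GRCm38 annotation Dpp4 and Ace overlap an antisense gene, listed at up to 0.156 and 0.228 FPKM, Enpep and Mep1b a pseudogene on the other strand, and Anpep a provisional gene model on its own strand, with no values used here. Reads of such pairs may be split or, without a known strand setting, cannot be told apart.

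Whole reads were recovered from the steps of the values (23951 of 23951 genes above 0, within 0.01 reads). The 11774 genes averaging 1 FPKM or more were fitted on log2(FPKM + 1), pseudocount 1, with limma 3.58.1 in R 4.3.3 (trended, robust prior). This was tested on simulated data. Values of 1 listed gene are not reported here. Members and lists were chosen with earlier results of these data known. Named were all members; of each list the passing genes (up to 6) and up to 4 others of highest mean, of marker lists the 2 highest; the other named genes were chosen after their values were seen. Alternatives covered pseudocount, filter, scaling, variance prior, blocks, averaging and leaving out each library. Intervals cover counting error only.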

Additional observations from a re-analysis of the deposited data

How the results depend on the processing

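Depth limits genes with few reads in DMSO libraries: Naaladl1 in DMSO 1, and Sis and Slc7a9, whose log2 differences of 1.82 and 1.69 were 4.08 and 3.73 with a pseudocount of 0.1 and 5.17 and 4.57 with 0.01. The near identity of libraries 2 and 3 limits every count of calls. Log2 differences of 7 members were positive under all 17 alternatives, and that of Xpnpep2 under the 16 that gave it a value. Their median, 0.80, was 1.11 and 1.17 with pseudocounts of 0.1 and 0.01, 0.58 with a filter of 5 FPKM, which leaves out Xpnpep2, and 0.70 to 0.97 when 1 library was left out. Of all genes tested, 239 passed (129 higher, 110 lower). Without a filter 140 passed, with libraries 2 and 3 averaged 3, with them as a random block 46, and without 1 library 45 to 4479. Scaling by epithelial markers gave 224 higher and 86 lower and quantile normalization 175 and 128, and without lenvatinib 1 the 4479 were 1160 higher and 3319 lower. The median difference of all genes, -0.07, lay between -0.10 and 0.01. Of the other surface hydrolases 2 passed, 0 with a filter of 5 FPKM (5 genes tested), averaging or the random block, and 0 to 5 without 1 library. Of the uptake genes 2 passed, and 1 to 4 without 1 library. With the replicate number as a block 29 genes passed, with 0 of these hydrolases, 0 of the uptake genes and 0 of the intracellular peptidases (limma adjusted p = 0.0627 for Ggt1, 0.0811 for Sis, 0.0665 for Slc7a9, 0.0798 for Slc3a1 and 0.101 for Ctsh). Deviations of same-numbered libraries from their group means correlated at -0.196, -0.159 and -0.151, and no library correlated best with its own number. Since libraries 2 and 3 of each group were nearly alike, these correlations mostly repeat the contrast of library 1 with libraries 2 and 3. They cannot tell if the numbers pair the libraries. Beyond the alternatives' own construction, the cause of the shifts between alternatives was not tested.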
